A study of Mus musculus with 2 samples.

Results

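The Mir26 family of mouse microRNAs (miRNAs) comprises 3 genes, Mir26a-1, Mir26a-2 and Mir26b, and each lies within a gene of the Ctdsp family. The members were taken by symbol from the GENCODE M21 annotation, which gave 3 of the 2202 miRNA genes counted, and all 3 averaged 10 counts or more per library. They were chosen by symbol but with these counts in view, both their levels and their differences between the libraries, so those values are given as a description with no test. Short RNAs were sequenced from gastrocnemius, the large calf muscle, of adult female B6CASTF1/J mice, an F1 hybrid strain, at 18 to 20 months of age. The 2 libraries form 1 group with no treatment or genotype contrast, and they are called replicate 1 and replicate 2 after the biological replicate numbers in the labels. The labels give both libraries the same donor entry but separate tissue sample entries, so differences between them may be technical.

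A miRNA gene is transcribed as a hairpin, from which enzymes cut a short RNA on each side of the stem, the 5p and the 3p arm. The arm that is loaded into an Argonaute protein pairs with messenger RNAs mainly through its seed, bases 2 to 8, and lowers their translation and stability. The Ctdsp genes encode small phosphatases that act on the C-terminal domain of RNA polymerase II. In mouse myoblasts, miR-26a is known to rise during differentiation and to repress the histone methyltransferase gene Ezh2 and the signalling genes Smad1 and Smad4. In zebrafish, miR-26b is known to repress ctdsp2, its own host.

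The mature sequences are shown because they determine which reads can be assigned to which gene. They are written 5′ to 3′ with the seed in capitals, and come from RefSeq on build GRCm38.p6, the assembly also called mm10.
miR-26b-5p: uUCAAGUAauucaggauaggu
miR-26a-5p: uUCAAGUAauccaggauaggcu
miR-26b-3p: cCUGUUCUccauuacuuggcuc
miR-26a-2-3p: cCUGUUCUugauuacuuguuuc
miR-26a-1-3p: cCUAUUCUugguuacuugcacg
The 3 genes give 5 distinct arms. All of the 5p arms have the seed UCAAGUA, and among 1679 mature miRNAs in the RefSeq table no other had it. The 5p arm of Mir26b differs from that of Mir26a by the substitutions C11U and C21U, counted from 1 at the 5′ end with the Mir26a base first, and it is 21 rather than 22 bases long. The 3p arms of Mir26a-2 and Mir26b share the seed CUGUUCU, which 4 mature miRNAs of the table carry. The 3p arm of Mir26a-1 has the seed CUAUUCU, which no other entry carries, and differs from that of Mir26a-2 by 6 substitutions, of which A4G lies in the seed.

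The hairpins are shown next, with both mature arms in capitals, because the copies of Mir26a are alike on one arm only.
Mir26b: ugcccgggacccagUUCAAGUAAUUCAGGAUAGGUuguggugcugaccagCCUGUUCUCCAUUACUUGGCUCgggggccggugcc
Mir26a-2: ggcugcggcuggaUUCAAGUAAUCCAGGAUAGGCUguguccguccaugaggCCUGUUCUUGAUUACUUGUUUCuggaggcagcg
Mir26a-1: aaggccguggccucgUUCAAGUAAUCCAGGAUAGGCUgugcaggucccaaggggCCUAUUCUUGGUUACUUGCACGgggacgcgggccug
The hairpins of Mir26a-1 and Mir26a-2 share a run of 25 bases, uucaaguaauccaggauaggcugug. It begins at the first base of the 5p arm and ends 25 bases on, past the end of that arm, so a read of the annotated 5p arm is identical for both genes. Of the 69 windows of 22 bases in the Mir26a-1 hairpin, 4 (5.80%) occurred in Mir26a-2, as did 4 of 63 (6.35%) the other way. No window of either occurred in any other of 141767 GENCODE M21 transcripts, searched on both strands. None of the 64 windows of Mir26b occurred in another transcript, and its longest run in common with Mir26a-1 was 11 bases. The rest of the genome was not searched.

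**Figure D1:**
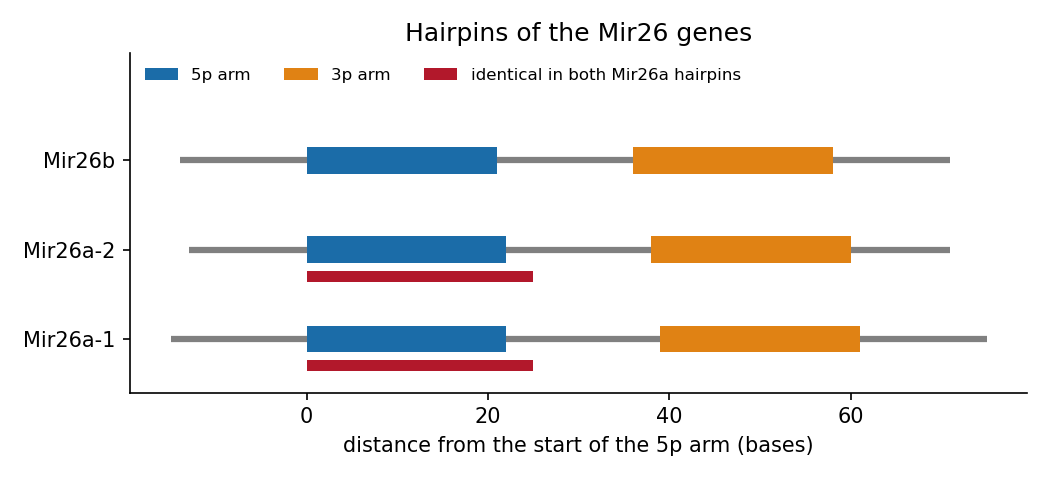
Hairpins of the 3 Mir26 genes, aligned at the start of the 5p arm (horizontal axis, bases). Blue and orange bars mark the 5p and 3p arms, and the red bar marks the 25 bases identical in both Mir26a hairpins, which cover the whole 5p arm, while Mir26b has no such stretch.

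Reads that map to more than 1 place are tallied apart in the files and enter no gene count. That tally held 5556809 reads in replicate 1 and 8516459 in replicate 2, and how many of them belong to Mir26a was not analysed here. The Mir26a-1 and Mir26a-2 counts are therefore lower bounds on these miRNAs, whereas the arms of Mir26b are unique among annotated transcripts. Sense-strand counts on miRNA genes came to 865419 in replicate 1 and 2177048 in replicate 2. A level is given as CPM, the count per 1000000 of these totals, without division by length, since a read spans a whole miRNA and the hairpins are 84 to 90 bases long. A count of 0 would still allow 3 counts, which is 3.47 CPM in replicate 1 and 1.38 in replicate 2. Intervals are exact at 95%. They cover counting error only, because the files record no molecular identifiers and several reads can stem from 1 molecule.

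The tissue label was checked against marker miRNAs. All 9 striated muscle miRNA genes had counts, led in assigned counts by Mir206, a miRNA of skeletal muscle. Together they stood at 40926 CPM in replicate 1 and 104458 in replicate 2. Mir1a and Mir133a on this list have numbered copies, so their counts, and this sum, may be lower bounds like those of Mir26a. The cell types therefore cannot be ordered by these sums. Endothelial Mir126a stood at 47279 and 52968 CPM, with Mir126b at 0 in both. The smooth muscle miRNAs stood at 75404 and 37985 CPM, the leukocyte miRNAs at 3619 and 4085, the fibroblast miRNAs at 633 and 1383, the erythroid miRNAs at 229.9 and 316, and the epithelial miRNAs at 24.3 and 141. Of 6 neural miRNA genes 4 were at 0, and the others summed to 1 and 5 counts. The files count miRNA genes only, so the messenger RNAs of the Ctdsp hosts and of Ezh2 were not measured.

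Mir26b had nearly all of the counts assigned to the family and was among the highest miRNA genes by uniquely assigned reads. Genes with copies can lose shared reads to the multimapping tally, so its place among all miRNAs of the muscle is not settled by these counts. It lies on chromosome 1 (ENSMUSG00000065468.1, mm10, 74394310 to 74394394, plus strand), in intron 4 of 6 of the principal transcript of Ctdsp1, 234 bases into an intron of 564 bases. No exon of Ctdsp1 overlaps it. It received 35320 counts in replicate 1 and 37434 in replicate 2. At 40813 CPM (interval 40388 to 41241) and 17195 CPM (17021 to 17369.9), it held 4.08% and 1.72% of all gene counts. The libraries thus gave nearly equal raw counts but unequal levels, because replicate 2 held 2.52 times as many gene counts. The mean level was 29004 ± 16700.3 CPM (SD, n = 2), and the gene ranked 6 of 2202 in replicate 1 and 14 in replicate 2.

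Mir26a-2 was counted at a small part of the level of Mir26b. It lies on chromosome 10 (ENSMUSG00000065430.1, 126995530 to 126995613, plus strand), in intron 5 of 7 of the principal transcript of Ctdsp2. In 2 of the 4 annotated Ctdsp2 transcripts, 1 base of it falls in an exon. It had 275 counts in replicate 1 and 241 in replicate 2, which corresponds to 318 CPM (281 to 358) and 111 CPM (97.2 to 126). Replicate 1 was the higher, and the counting intervals did not overlap. The mean was 214 ± 146 CPM (SD, n = 2), and the ranks were 91 and 147.

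Mir26a-1 was close to Mir26a-2 in replicate 1 but had few counts in replicate 2. It lies on chromosome 9 (ENSMUSG00000065513.1, 119031796 to 119031885, plus strand), in intron 5 of 7 of the principal transcript of Ctdspl, 105343 bases from the annotated start of that gene. It had 259 counts in replicate 1 and 13 in replicate 2, or 299 CPM (264 to 338) and 5.97 CPM (3.18 to 10.2). The 13 counts of replicate 2 leave a wide interval, which lies above the 1.38 CPM of 3 counts. The SD of 207 CPM exceeded the mean of 153 CPM (n = 2). Its rank went from 94 to 311. No member had an antisense count in either library, and the unstranded column gave the same counts for all 3 genes.

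**Figure D2:**
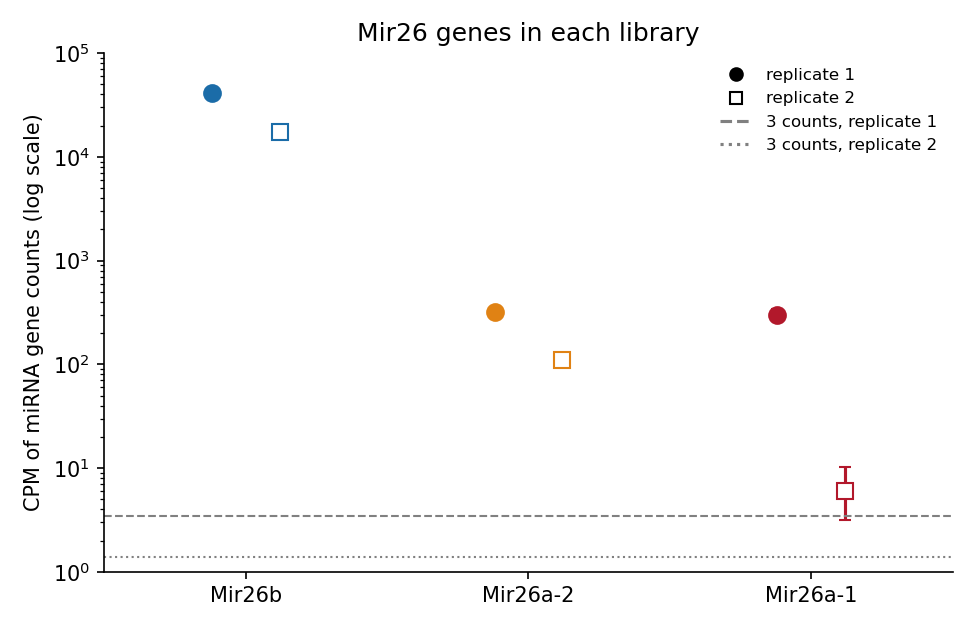
Level of each Mir26 gene (vertical axis, CPM of miRNA gene counts, log scale) in replicate 1 (filled circles) and replicate 2 (open squares), with exact 95% Poisson intervals, which are smaller than the symbols except for Mir26a-1 in replicate 2. The grey lines are the levels of 3 counts; Mir26b stands at 40813 and 17195 CPM and Mir26a-1 in replicate 2 at 5.97 CPM.

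Within the family, the division of counts does not depend on how the libraries are scaled. Mir26b took 98.5% of the family's 35854 counts in replicate 1, with a Clopper-Pearson interval of 98.4 to 98.6, and 99.3% of 37688 in replicate 2 (99.2 to 99.4). Mir26a-2 took 0.767% (0.679 to 0.863) and 0.639% (0.561 to 0.725), and these intervals overlap. Mir26a-1 took 0.722% (0.637 to 0.816) and 0.0345% (0.0184 to 0.0590), and these do not. These shares set uniquely assigned reads side by side. Reads of the shared 5p arm would raise the Mir26a side by an amount the counts do not give. The family together reached 41429.6 and 17312 CPM, or 2.94% ± 1.71 of gene counts (SD, n = 2).

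By mean level, Mir26b stood 13 of 2202, between Mirlet7d at 30413 ± 13441 CPM and Mir30a at 28285 ± 10823 CPM. The values of its neighbours within 3 places on each side overlapped its own range, except for Mir29a, the lowest of them, at 14193 and 14792 CPM. Mir26a-2 stood 115 of 2202, below Mir1a-2 at 216 ± 76.5 CPM, a striated muscle miRNA gene that also has a copy, and above Mir541 at 210.4 ± 132 CPM. Mir26a-1 stood 127 of 2202, between Mir1981 at 166 ± 10.8 CPM and Mir434 at 152 ± 102 CPM. All 6 neighbours of each Mir26a gene overlapped its range, so their order at these levels was not resolved by 2 libraries.

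**Figure D3:**
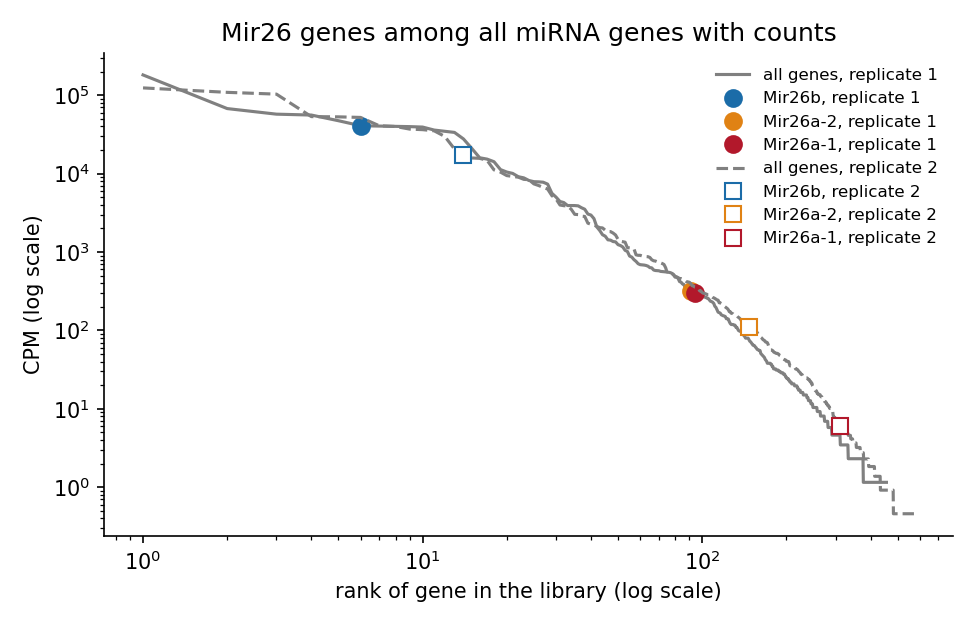
Level (vertical axis, CPM, log scale) against rank (horizontal axis, log scale) for all miRNA genes with counts, in replicate 1 (solid line, filled circles for the Mir26 genes) and replicate 2 (dashed line, open squares). Mir26b lies at ranks 6 and 14 and Mir26a-1 at ranks 94 and 311.

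All 3 Mir26 genes were higher in replicate 1. Against the totals of gene counts, Mir26b was 2.37-fold higher (exact conditional interval 2.34 to 2.41), Mir26a-2 2.87-fold (2.41 to 3.43) and Mir26a-1 50.1-fold (28.8 to 95.4). All 3 were past 2-fold in that direction, which 7.21% of the 305 tested genes were (those averaging 10 counts or more), and 1 of 3 was past 4-fold, against 1.64% of the genes. Past 2-fold toward replicate 2 were 0 of 3, against 30.5% of the genes. The members were chosen with this difference known, and a 2-fold difference here compares 2 libraries, not conditions. The shares of all tested genes, here and below, depend on the filter. It uses raw counts, of which replicate 2 held 2.52 times as many, so it favours genes higher in replicate 2. Mir543, for example, passed it with 0 and 55 counts. Of the 170 genes averaging 100 counts or more, 13 were past 2-fold toward replicate 1 and 37 toward replicate 2. With all reads as the library total, Mir26b and Mir26a-2 stayed higher in replicate 1 but fell short of 2-fold, at log2 ratios of 0.72 and 0.99. The other scalings left all 3 past it.

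The scaling moves every gene by the same amount. TMM added 0.28 to each log2 ratio of replicate 1 over replicate 2, DESeq2 size factors added 0.34, and all reads as the total changed it by -0.53. Of the genes past 2-fold, 80.9% were higher in replicate 2 with gene totals, 70.1% with TMM, 68.2% with DESeq2 size factors and 94.2% with all reads. Set against the median of all tested genes, which was -0.43, Mir26b lay 1.68 higher on the log2 scale, Mir26a-2 1.96 higher and Mir26a-1 6.08 higher. The SD of the log2 ratio over the 305 genes was 1.25. Mir26b and Mir26a-2 thus lay 1.34 and 1.56 SD above the median, in 17th and 10th place from the replicate 1 end, inside the range of the other genes.

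Mir26a-1 had the highest log2 ratio of all tested genes, 5.65, and the next, Mir16-2, stood at 2.41 with 501 and 237 counts. Mir16-2 is also a copied gene, with a second locus called Mir16-1. Among the 98 genes averaging 100 to 1000 counts, which include both Mir26a genes, 8 were past 2-fold toward replicate 1 and 29 toward replicate 2. Among the 29 genes averaging over 10000 counts, which include Mir26b, the numbers were 3 and 4.

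**Figure D4:**
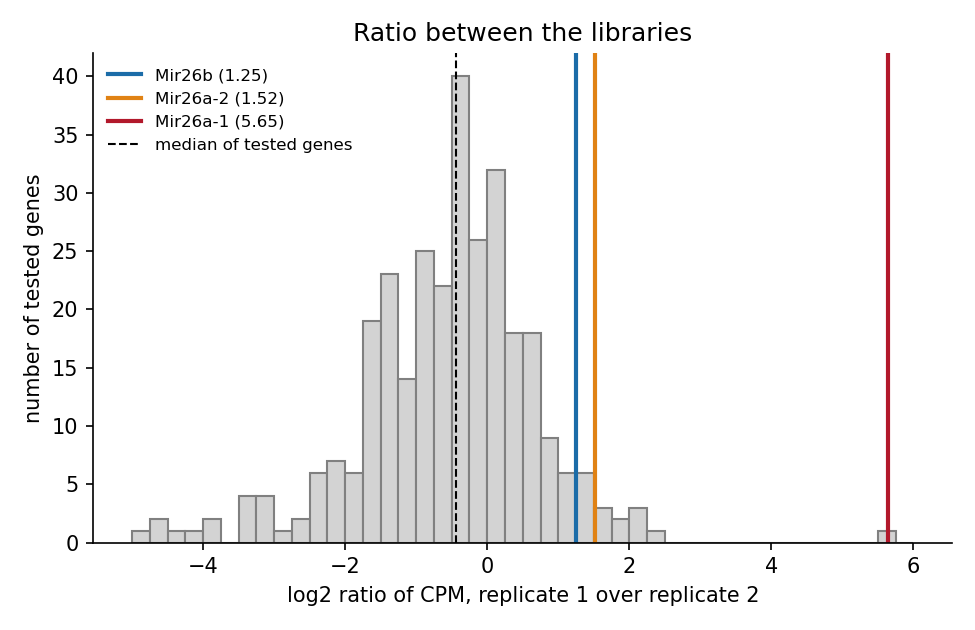
Log2 ratio of CPM, replicate 1 over replicate 2 (horizontal axis), for the 305 tested miRNA genes (grey bars, number of genes on the vertical axis). Lines mark Mir26b at 1.25, Mir26a-2 at 1.52 and Mir26a-1 at 5.65, and the dashed line marks the median of -0.43; Mir26a-1 stands apart from every other gene.

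The copies of Mir26a were compared within each library, where scaling has no part. Mir26a-1 held 48.5% of the counts of both copies in replicate 1, with a Clopper-Pearson interval of 44.2 to 52.8, and 5.12% in replicate 2 (2.75 to 8.59). Mir26a-2 exceeded Mir26a-1 by 1.06 to 1 in replicate 1 (0.893 to 1.26), an even split within counting error, and by 18.5 to 1 in replicate 2 (10.6 to 35.3). For comparison, in uniquely assigned reads Mir26b exceeded Mir26a-2 by 128 to 1 and 155 to 1, and Mir26a-1 by 136 to 1 and 2880 to 1. Reads of both arms can count for Mir26b, whereas a read of the annotated 5p arm of Mir26a counts for neither copy. Neither these ratios nor the split between the copies therefore gives the relative output of the genes.

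Other miRNA genes with numbered copies give the range of such splits in these libraries. There were 24 families averaging 10 counts or more over their copies together, and the 21 with sequences for both copies all shared a run of 22 to 28 bases. The log2 ratio of the highest to the lowest copy had a median of 2.75 over 23 families in replicate 1, where Mir26a at 0.09 was the most even. In replicate 2 the median was 2.58 over 24 families, and 18 of them were more even than Mir26a at 4.21. Families with a copy at 0 enter both medians at 3 counts. The 18 include such a family, Mir199a, whose value of 2.12 in replicate 2 is only a lower bound. Between the libraries, the log2 ratio of copies moved by a median of 0.76 over the 21 families with no copy at 0. It moved by 4.13 for Mir26a, the most of them, and by 3.34 for Mir129, where copy Mir129-2 had 2 and 68 counts. Mir26a-2 had the higher count in both libraries, though in replicate 1 the difference was within counting error. The same copy had the higher count in both libraries in 23 of the 24 families, and the exception was Mir16.

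**Figure D5:**
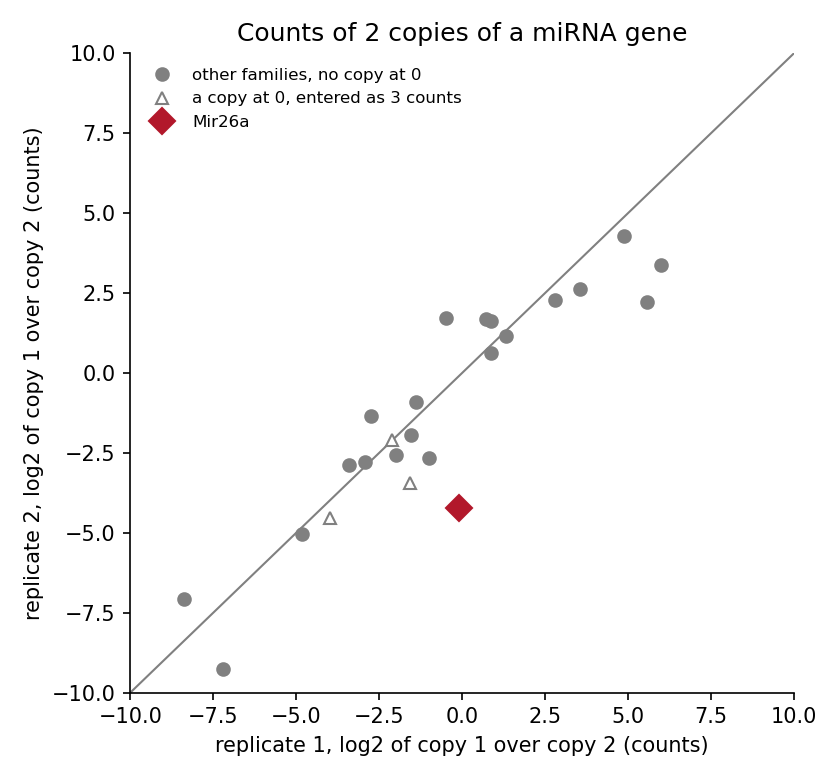
Log2 ratio of counts between copies of a miRNA gene in replicate 1 (horizontal axis) and replicate 2 (vertical axis) for 24 families, with copy 1 over copy 2. The grey line marks equal ratios, triangles have a copy at 0 that was entered as 3 counts, and Mir26a (red diamond) lies at -0.09 and -4.21, the farthest from the line.

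The genes with the pattern most like each member were taken by Euclidean distance of log2(CPM + 1) over the 2 libraries, which rests on 2 values per gene. Mir30a was nearest to Mir26b at a distance of 0.32, with 35938 and 20632 CPM, followed by Mir99a (0.80) and Mir10b (0.91). Mir26a-2 had Mir203 (0.22), Mir223 (0.24) and Mir142 (0.42) nearest. Of these, Mir223 and Mir142 are leukocyte miRNAs, and Mir142 had 213 and 209 counts. No gene was near Mir26a-1. The closest entries were Snord43 at 2.38, Mir378c at 2.71 and Mir3107 at 3.10.

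Markers of other cell types also differed between the libraries, some in the direction of the Mir26 genes and some against it, and their part in the result was not tested. In whole muscle, fewer cells of a type and less RNA per cell cannot be told apart. Of the smooth muscle miRNAs, Mir145a was past 2-fold toward replicate 1 at a log2 ratio of 1.47, and Mir143 stood at 0.94. Of the 4 leukocyte genes, Mir142 (1.36) and Mir223 (1.18) were past 2-fold toward replicate 1, while Mir150 (-0.07) and Mir155 (-0.57) were not past it in either direction, and the leukocyte sum was the higher in replicate 2. Of 4 tested epithelial genes all 4 were past 2-fold toward replicate 2, with a median log2 ratio of -2.52. They had only 1 to 9 counts in replicate 1, against 51 to 112 in replicate 2. Each thus reached a mean of 10 counts through replicate 2 alone, so the filter itself favoured this direction. The erythroid genes stood at -0.37 and -0.98, and the fibroblast genes were split, with Mir214 at -1.24, Mir199b at 0.28 and Mir199a-2 at 1.33. Mir199a-2 had only 13 counts in each library, so its ratio is that of the library totals. It also has a copy, Mir199a-1, so its counts may be lower bounds. With all reads as the total, none of the smooth muscle and leukocyte genes was past 2-fold toward replicate 1, while TMM and DESeq2 size factors placed Mir143 past it. Of 7 tested striated muscle genes, 3 were past 2-fold toward replicate 2 and 0 toward replicate 1, beside 30.5% and 7.21% of all tested genes. TMM and DESeq2 size factors added 1 toward replicate 1, Mir1a-2, while all reads as the total gave 4 toward replicate 2 and 0 toward replicate 1. The share of reads that were multimapping was 80.7% in replicate 1 and 71.0% in replicate 2, and the share assigned to miRNA genes was 12.6% and 18.1%.

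Other miRNA genes known to repress Ezh2 are given for comparison. Of the 6 on the list, Mir101c was at 0, and of the 5 tested, 3 were past 2-fold toward replicate 2 and 0 toward replicate 1, beside 30.5% and 7.21% of all tested genes. Those 3 were Mir214, at 564 and 1335 CPM, and both copies of Mir138, while Mir101a and Mir101b, at log2 ratios of -0.56 and -0.62, lay nearer the median of all genes. With TMM or DESeq2 size factors 0 of the 5 were past 2-fold, and with all reads as the total all 5 were, toward replicate 2. The list's median log2 ratio was -1.13, beside -0.43 for all 305 genes. Mir214, the highest of the list by mean level, stood at 949 ± 545 CPM and Mir138-2, its lowest tested member, at 33.7 ± 19.9 CPM (SD, n = 2). By assigned counts, Mir26b exceeded every member of the list in both libraries. The Mir26a counts are lower bounds and cannot be ordered against them. Both copies of Mir138 share a run of 24 bases, so their counts, and the place of Mir138-2 as lowest, may have the same limit.

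Of 18 other miRNA genes listed for a part in muscle differentiation, 17 were tested. Of these, 3 were past 2-fold toward replicate 2 and 0 toward replicate 1, beside 30.5% and 7.21% of all tested genes. With TMM or DESeq2 size factors, 1 was past 2-fold toward replicate 2 and 2 toward replicate 1. With all reads as the total, 5 were past it toward replicate 2 and 0 toward replicate 1. The list's median log2 ratio of -0.25 stood near the -0.43 of all tested genes. Its members ranged from Mir378a, a miRNA of metabolic and muscle tissue at 152675 ± 40587 CPM, to Mir133a-2, a striated muscle gene with a copy, at 3.68 ± 1.94 CPM. As a copied gene, Mir133a-2 may have lost shared reads to the multimapping tally, so that value may be a lower bound. Mir29a and Mir27b, at 14492 ± 423 and 7201 ± 213 CPM, varied little between the libraries, and Mir26b exceeded both in each library.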

How the data were processed

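MicroRNA-seq reads were counted by the authors on 2202 miRNA genes. The deposited counts are raw, without normalization, on mm10 with GENCODE M21, per the deposited README. The aligner and the counter were not given in the sources used here. Judged by their values, the unnamed columns are unstranded, sense and antisense tallies of reads, of which the sense column served for all results. Rows that name no gene (4 tallies, 87.4% and 81.9% of reads) stayed out of totals. All identifiers matched the annotation.

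Genes averaging 10 counts or more were compared. No p-value was computed: the members, lists and rule for named genes were chosen with earlier results of these data known. That rule named the members, 3 neighbours on each side by mean CPM, the 3 genes nearest in pattern, and the highest and lowest member of each list; further genes were chosen after their values were seen. Intervals are exact Poisson, Clopper-Pearson or conditional binomial, of which only the conditional interval of the ratio between libraries was tested on simulated data. Alternatives were edgeR 4.0.16 TMM, DESeq2 1.42.0 size factors, other totals, filters and thresholds, the unstranded column and single libraries. Python 3.11.15, SciPy 1.17.1 and R 4.3.3 were used.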

Additional observations from a re-analysis of the deposited data

How the results depend on the processing

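The log2 ratio of no Mir26 gene changed sign under the scalings or in the unstranded column. With all reads as the total, the mean level was 4123 CPM for Mir26b, 30.0 for Mir26a-2 and 19.3 for Mir26a-1. The log2 ratio of Mir26b was 1.53 with TMM, 1.59 with DESeq2 size factors, 0.72 with all reads, 1.34 without the most abundant gene and 1.34 in the unstranded column. That of Mir26a-2 was 1.80 with TMM, 1.86 with DESeq2 size factors and 0.99 with all reads. That of Mir26a-1 ranged from 5.12 to 5.99. Toward replicate 1, 22 genes were past 2-fold; this became 34 with DESeq2 size factors, 9 with all reads, 175 with no filter, 13 for genes averaging 100 counts or more and 5 at 4-fold. Toward replicate 2, 93 became 146 with all reads, 119 with no filter, 37 for genes averaging 100 counts or more and 31 at 4-fold. Without a filter, where counts of 0 enter as 3, the balance turned, with 40.5% of the genes past 2-fold toward replicate 2. That turn cannot be read as a shift toward replicate 1, because the entry itself places genes there. Mir470, with 0 counts in replicate 1 and 1 in replicate 2, stood at a log2 ratio of 2.92. The copy ratio had a median of 2.52 in families averaging 100 counts or more. Windows of 18 bases were shared at 11.9% for Mir26a-2 and 11.0% for Mir26a-1. With either library left out, only the values of the other remain, so the ranges that follow restate them and are no check. The level ranged from 17195 to 40813 CPM for Mir26b, 111 to 318 for Mir26a-2 and 5.97 to 299 for Mir26a-1. The family shares ranged from 98.5% to 99.3%, 0.639% to 0.767% and 0.0345% to 0.722%, and the median copy ratio from 2.58 to 2.75. No paired analysis was possible because there is 1 group. Counting error is largest for Mir26a-1, with 13 counts in replicate 2, the library with more gene counts.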
